A study of Mus musculus with 36 samples.

Results

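The genes described here are Akt1 and Akt2, which encode the protein kinases PKB alpha and PKB beta, and 5 genes of the phosphoinositide 3-kinase (PI3K) step that activates them: Pik3ca, Pik3r1, Pik3r2, Pdpk1 and Inppl1. The 7 genes were chosen with earlier results of these data known. Probe sets were then taken by name, as those whose gene symbol in the platform annotation is 1 of these 7. That gave 13 of the 22690 probe sets on the array and 7 of the 12393 genes read by a probe set of their own. RNA came from PKBa-/- mouse embryonic fibroblasts, which lack Akt1, and from wild type fibroblasts, both raised from 13.5-day-old embryos of crosses between heterozygous PKBa mice and used between passages 15 and 20. It was measured on 36 Affymetrix arrays, 18 of each genotype. Cells were taken at times labelled 0, 2, 6, 24 and 48, for which no unit is stated, with 4 arrays for each genotype and time except time 2, which had replicates 1 and 2 alone. The series title speaks of cells in DMEM, a standard culture medium, whereas the extraction protocol also describes a medium that induces adipocytes, and which of these the cells on the arrays had been given is not labelled. Nor do the labels say whether replicates were separate cultures or embryos. The p-values then reflect only how arrays or pairs of arrays spread, which may be technical. If each genotype came from a single line of cells, a genotype effect and a difference between the lines cannot be told apart.

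PI3K is a heterodimer at the inner face of the plasma membrane. Its catalytic subunit phosphorylates an inositol lipid once growth factor receptors are engaged, and its regulatory subunit holds the catalytic subunit stable and inhibited until then. Akt kinases bind the lipid made in this way and are phosphorylated there by the kinase PDK1, the product of Pdpk1. Lipid phosphatases, among them SHIP2, the product of Inppl1, convert that lipid to other forms. In fibroblasts the pathway carries insulin and growth factor signals to protein synthesis, glucose use and survival.

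The genes lie on 6 mouse chromosomes in the assembly GRCm38.p6, as protein-coding genes of RefSeq: Akt1 at chr12:112653821-112674884, Akt2 at chr7:27591552-27640826, Pik3ca at chr3:32397065-32466112, Pik3r1 at chr13:101680761-101768217, Pik3r2 at chr8:70768176-70776712, Pdpk1 at chr17:24073680-24155619 and Inppl1 at chr7:101822632-101838226. All 7 had RefSeq promoter windows, 14 in all, each reaching from 250 bases before a transcription start to 50 bases after it. Shown are the windows of 3 genes, picked after the signals were seen. They are Akt1, whose product is absent by design, and the regulatory subunit genes Pik3r1 and Pik3r2. The latter differed between the genotypes in opposite directions. Letters are lower case, 5′ to 3′ on the gene's own strand (the minus strand for these windows). Capitals mark a GC box (GGGCGG, or CCGCCC on the other strand) or a FoxO motif (TGTTTAC, or GTAAACA on the other strand); overlapping matches run together.
Akt1 promoter at the upstream start, chr12:112674835-112675134: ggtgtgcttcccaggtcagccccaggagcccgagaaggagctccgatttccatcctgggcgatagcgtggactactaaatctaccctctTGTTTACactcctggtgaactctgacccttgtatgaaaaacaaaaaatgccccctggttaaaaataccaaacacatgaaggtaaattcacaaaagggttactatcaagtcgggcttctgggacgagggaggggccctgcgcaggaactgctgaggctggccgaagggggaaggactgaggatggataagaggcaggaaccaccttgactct
Akt1 promoter at the downstream start, chr12:112674227-112674526: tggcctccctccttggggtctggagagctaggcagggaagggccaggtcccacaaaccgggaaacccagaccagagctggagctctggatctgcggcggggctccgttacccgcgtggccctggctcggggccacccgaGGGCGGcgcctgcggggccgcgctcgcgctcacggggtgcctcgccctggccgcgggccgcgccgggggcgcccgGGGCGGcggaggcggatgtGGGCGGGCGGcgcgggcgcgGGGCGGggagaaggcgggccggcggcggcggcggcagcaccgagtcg
Pik3r1 promoter at the upstream start, chr13:101768168-101768467: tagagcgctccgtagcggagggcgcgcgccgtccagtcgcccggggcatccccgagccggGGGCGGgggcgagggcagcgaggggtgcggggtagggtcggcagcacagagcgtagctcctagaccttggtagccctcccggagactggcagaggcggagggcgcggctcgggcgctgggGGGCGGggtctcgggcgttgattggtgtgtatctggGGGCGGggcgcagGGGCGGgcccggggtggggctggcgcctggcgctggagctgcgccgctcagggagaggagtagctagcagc
Pik3r1 promoter at an internal start, chr13:101692581-101692880: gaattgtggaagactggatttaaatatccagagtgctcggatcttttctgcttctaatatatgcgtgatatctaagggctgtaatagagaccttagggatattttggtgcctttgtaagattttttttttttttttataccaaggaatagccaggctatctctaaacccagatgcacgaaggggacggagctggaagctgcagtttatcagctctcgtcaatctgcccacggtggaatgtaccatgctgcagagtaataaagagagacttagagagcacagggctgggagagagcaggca
Pik3r2 promoter, chr8:70776663-70776962: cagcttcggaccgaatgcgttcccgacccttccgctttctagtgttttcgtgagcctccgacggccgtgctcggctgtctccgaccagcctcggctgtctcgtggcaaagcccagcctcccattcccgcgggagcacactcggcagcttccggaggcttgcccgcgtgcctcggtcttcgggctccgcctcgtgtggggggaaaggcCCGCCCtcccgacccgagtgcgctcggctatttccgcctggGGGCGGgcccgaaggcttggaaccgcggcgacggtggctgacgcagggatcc
The upstream Akt1 window held 1 FoxO motif, at position -161 from the start, and no GC box, and 52.3% of its bases were G or C. The downstream Akt1 window held 5 GC boxes and no FoxO motif at 79.7% G and C. The upstream Pik3r1 window held 4 GC boxes at 75.7% G and C, and the internal one held neither motif at 43.7%. The Pik3r2 window held 2 GC boxes at 69.3%. Of the genes not shown, Pdpk1 had windows with 5 and 0 GC boxes, Inppl1 4 in each and Pik3ca 1. The most upstream Akt2 window held 1 and its others 0. None of these windows held a FoxO motif. Of 32851 mouse promoter windows of the same length, 35.7% held a GC box and 3.65% a FoxO motif, and their median content of G and C was 52.7%. The E-box CACGTG was found in 7.15% of all windows and in 0 of the 14 windows of these genes. A match describes the letters only.

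Median signal per array was 134 to 145, and precision is limited by how many arrays there were. Within a group, the arrays of replicates 1 and 2, and likewise those of 3 and 4, were close (mean r over genes 0.993, against 0.969 between such pairs), so each pair was averaged before the tests. Fibroblast markers were abundant: all 10 fibroblast genes fixed for the check lay above the signal limit of the tests, with summed signals of 62369 to 72056 in PKBa-/- arrays and 53098 to 66599 in wild type arrays. Single markers did not all have like levels in the genotypes: decorin (Dcn) averaged 767 in PKBa-/- and 7116 in wild type, and Thy1 averaged 4137 in PKBa-/- and 1012 in wild type. None of the 4 adipocyte genes on the array reached the limit (sums of 109 to 141 in PKBa-/- and 113 to 231 in wild type), nor did any of the 4 epithelial genes (202 to 303 in PKBa-/- and 214 to 264 in wild type). Among the other markers the limit was reached by the endothelial receptor gene Kdr, 1 of 4 (sums of 289 to 489.8 in PKBa-/- and 521 to 1686 in wild type), by Csf1r, 1 of 5 macrophage and blood genes (291 to 461 in PKBa-/- and 325 to 403 in wild type), and by Des, 1 of 3 muscle genes (235 to 352 in PKBa-/- and 279 to 508 in wild type). The part of cell makeup in the results below was not tested, and in such bulk RNA fewer cells of a type and less RNA per cell cannot be told apart.

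The first comparison asked how far the loss of Akt1 showed in its own RNA. Akt1 signal was lower in PKBa-/- at every time. Over 18 arrays each, the lowest, median and highest signals were 43.8, 75.1 and 103 in PKBa-/- and 843, 1075 and 1395 in wild type, so the genotypes lay far apart. At time 0 the PKBa-/- arrays gave 96.9, 69.2, 61.6 and 54.7, against 1334, 1354, 903 and 1101 in wild type. At time 48 they gave 81.6, 77.3, 71.3 and 77.7, against 1279, 1395, 843 and 1030.0 in wild type. The residual signal stood below 123, the lowest mean signal at which genes were tested. The log2 difference averaged over the times was -3.45 ± 0.10 (SE; 95% interval -3.66 to -3.24; limma adjusted p = 3e-11), or 10.9-fold lower on the log2(signal + 32) scale, which understates the change of dim genes. At single times the differences ran between -3.65 ± 0.28 at time 2 and -3.22 ± 0.20 at time 24. Another probe set for Akt1 averaged 47.9 ± 9.67 in PKBa-/- and 747 ± 155 in wild type (SD, n = 18 arrays each), a difference of -3.30 ± 0.06 (limma adjusted p = 1.3e-12 in the fit over 12228 probe sets, of which 43.8% passed). The sources used here do not place the probe sets relative to the deleted part of the gene.

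Akt2, the paralog of Akt1 best known for its role in insulin-driven glucose uptake, showed no difference that passed the test. Its signals ran over 469.5 to 704 with a median of 611 in PKBa-/- and over 506 to 715 with a median of 610.3 in wild type, and the genotypes overlapped at every time on this probe set, the brightest. The averaged difference was -0.02 ± 0.07, with a 95% interval of -0.17 to 0.14 (limma adjusted p = 0.85). A dimmer Akt2 probe set gave 213 ± 27.0 in PKBa-/- and 219 ± 33.1 in wild type (SD, n = 18 arrays each; log2 difference -0.00 ± 0.08, limma adjusted p = 0.98). On this probe set the time 2 arrays did not overlap, with 219 and 243 in PKBa-/- and 182 and 206 in wild type (limma adjusted p = 0.78). On the brightest probe set, PKBa-/- arrays at time 6 gave 567, 483, 470.3 and 469.5 and wild type arrays 553, 526, 577 and 560.0, with overlap (log2 difference -0.15 ± 0.15, limma adjusted p = 0.57).

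**Figure D1:**
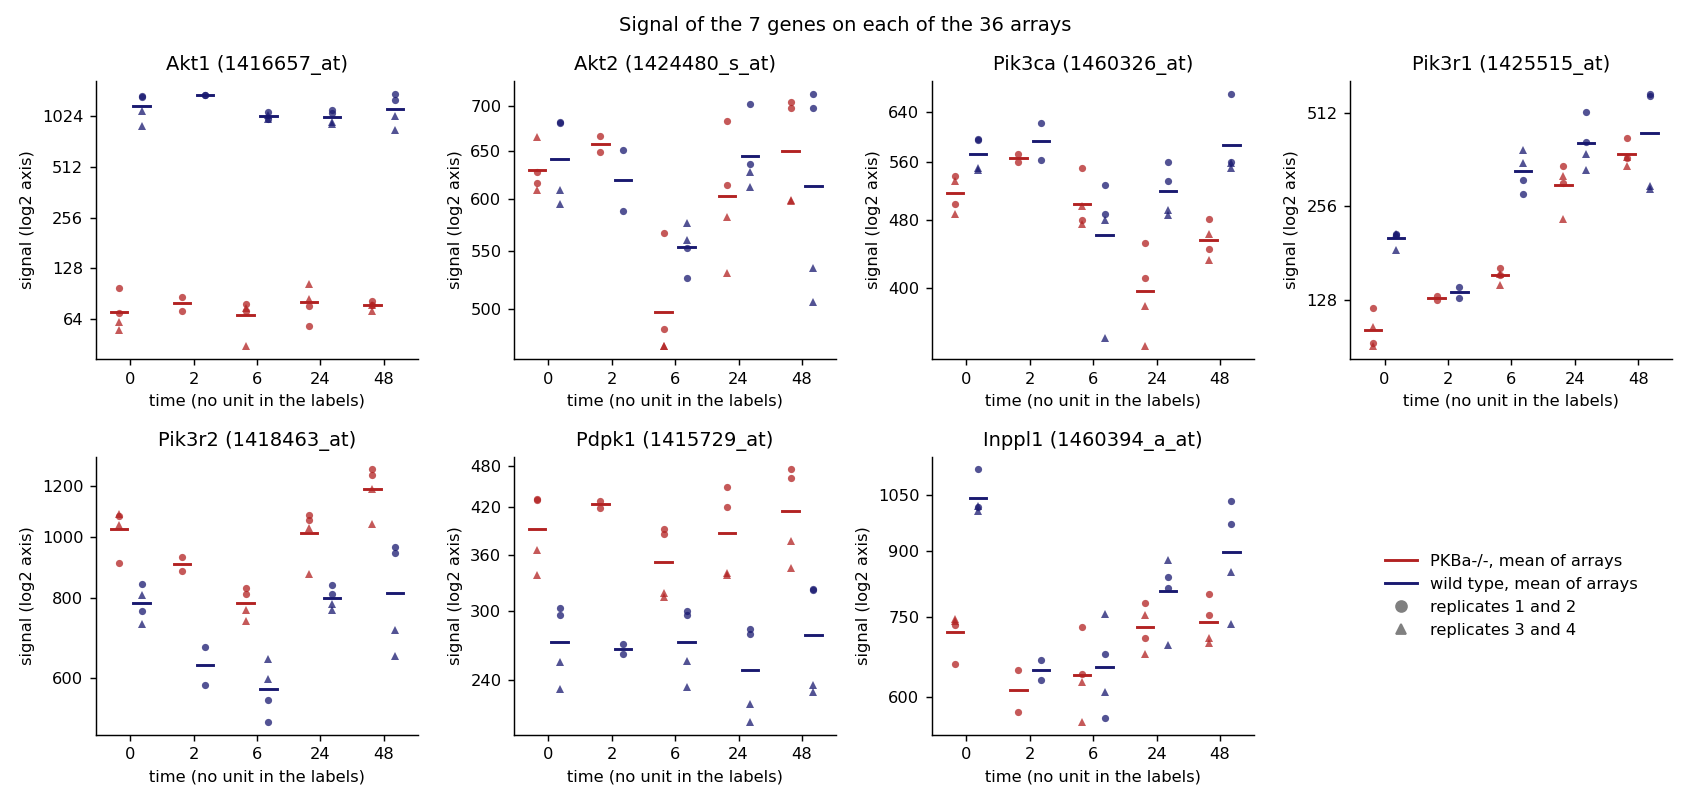
Signal of the 7 genes on their brightest probe sets, on a log2 axis, against time (equally spaced, no unit in the labels). Points are single arrays (circles for replicates 1 and 2, triangles for 3 and 4), bars are means of 4 arrays (2 at time 2), with PKBa-/- left of wild type at each time. Akt1 is split completely by genotype, with a highest PKBa-/- array of 103 and a lowest wild type array of 843, and Pik3r1 climbs to its highest means at time 48 in both genotypes.

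Averaged over the 5 times, 5 of the 7 genes passed the test between the genotypes. Pik3r2 and Pdpk1 were higher in PKBa-/-, and Akt1, Pik3r1 and Inppl1 were lower. The count includes Akt1, which PKBa-/- cells lack by design, so that its call was fixed in advance. Of all 7436 genes tested, 47.4% passed in this comparison (26.5% higher and 20.9% lower), so a passing gene was common here. The median log2 difference was -0.16 over the 7 genes and 0.03 over all genes. Apart from Akt1, the differences that passed lay between 1.15-fold and 1.42-fold.

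**Figure D2:**
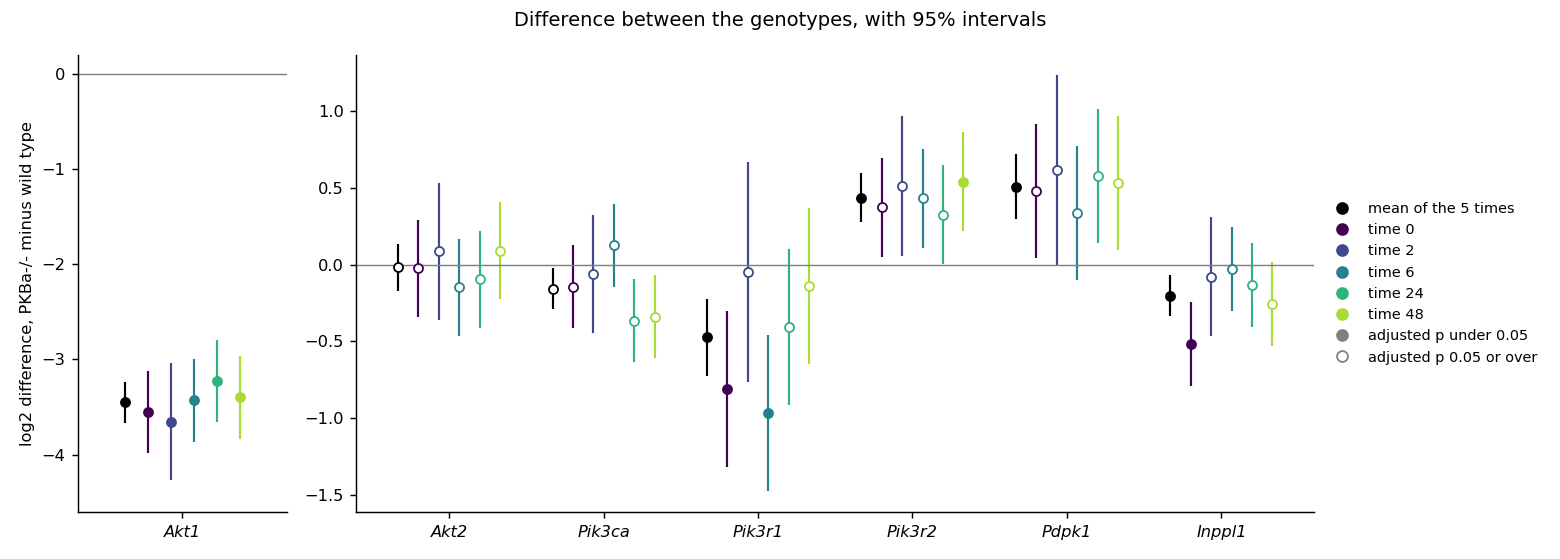
Log2 difference of each gene, PKBa-/- minus wild type, as the mean over the times and time by time, with 95% intervals from the limma fit. Filled points have an adjusted p under 0.05, and the left panel has its own scale. Akt1 lies near -3.45, Pik3r2 and Pdpk1 lie above 0 at all 5 times, and Akt2 scatters about 0.

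Pik3ca, which encodes the catalytic subunit p110 alpha, missed the threshold. Its averaged difference was -0.16 ± 0.06 (95% interval -0.29 to -0.02, limma adjusted p = 0.051). It passed with the replicate set, 1 and 2 or 3 and 4, as a block (limma adjusted p = 0.010). The arrays of the genotypes did not overlap at times 0, 24 and 48. For this gene and those below, the share of all genes with such gaps was not counted. Arrays of a pair were also close, so 4 arrays are not 4 separate readings. At time 0 PKBa-/- gave 500.4, 539, 487 and 533 and wild type 595, 595, 548 and 551 (log2 difference -0.14 ± 0.12, limma adjusted p = 0.46). At time 24 PKBa-/- gave 451, 411, 342 and 382 and wild type 561, 533, 492 and 486. At time 48 PKBa-/- gave 444, 481, 432 and 462 and wild type 672, 559.7, 558 and 552. The late differences were larger than that at time 0, at -0.36 ± 0.12 and -0.34 ± 0.12, and did not pass (limma adjusted p = 0.058 and 0.068) unless the replicate set was a block (0.010 and 0.013). At time 6 the arrays overlapped, with 551, 479.8, 474 and 498 in PKBa-/- and 487, 527, 480.1 and 349.7 in wild type. The other Pik3ca probe set was dimmer and overlapped at every time (260.0 ± 23.8 in PKBa-/- and 283 ± 51.9 in wild type, SD, n = 18 arrays each; log2 difference -0.09 ± 0.09, limma adjusted p = 0.46).

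Pik3r1, which encodes the regulatory subunits p85 alpha, p55 alpha and p50 alpha, was lower in PKBa-/- on average and most clearly at times 0 and 6. At time 0 the PKBa-/- arrays gave 121, 92.8, 105 and 90.4, and the wild type arrays 206, 208, 185 and 208. At time 6 PKBa-/- gave 162, 154, 155 and 143 and wild type 280.4, 310.4, 352 and 388. The groups did not overlap at either time. At time 2 they could hardly be told apart, with 131 and 128 in PKBa-/- and 129.8 and 140.4 in wild type. The log2 difference was -0.81 ± 0.23 at time 0 (1.75-fold lower, limma adjusted p = 0.035) and -0.97 ± 0.23 at time 6 (1.95-fold lower, limma adjusted p = 0.014). Averaged over the times it was -0.47 ± 0.11 (1.39-fold lower, limma adjusted p = 0.0044). The call at time 0 was lost with the offset raised to 64 (limma adjusted p = 0.054), with no filter on dim genes (0.054), with the mean of the probe sets (0.066) and without PKBa-/- time 0 replicate 2 (0.053).

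By times 24 and 48 the Pik3r1 groups overlapped. At time 24 PKBa-/- gave 304, 345, 319.8 and 233 and wild type 514, 413, 378 and 335 (log2 difference -0.41 ± 0.23, limma adjusted p = 0.26). At time 48 PKBa-/- gave 365, 426, 345 and 370.2 and wild type 591, 582, 297 and 291. The wild type arrays at time 48 fell into pairs, with replicates 1 and 2 averaging 587 and replicates 3 and 4 averaging 294, and the PKBa-/- arrays lay between them. The difference there was -0.54 in replicates 1 and 2 and 0.26 in replicates 3 and 4, or -0.14 ± 0.23 over both (limma adjusted p = 0.73).

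All 3 probe sets of Pik3r1 placed PKBa-/- below wild type at times 0 and 6. The next brightest one differed by -0.25 ± 0.07 on average (limma adjusted p = 0.015) and by -0.58 ± 0.15 at time 6 (limma adjusted p = 0.024), and its difference of -0.40 ± 0.15 at time 0 did not pass (limma adjusted p = 0.10). Of all probe sets, 13.8% passed at time 6 and 12.8% at time 0. The dimmest, whose mean lay below the limit of the tests, gave 30.4, 34.0, 22.7 and 23.6 in PKBa-/- and 94.5, 90.3, 69.4 and 68.5 in wild type at time 0, without overlap. All 3 are assigned to the gene as a whole, so its isoforms were not read apart.

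**Figure D3:**
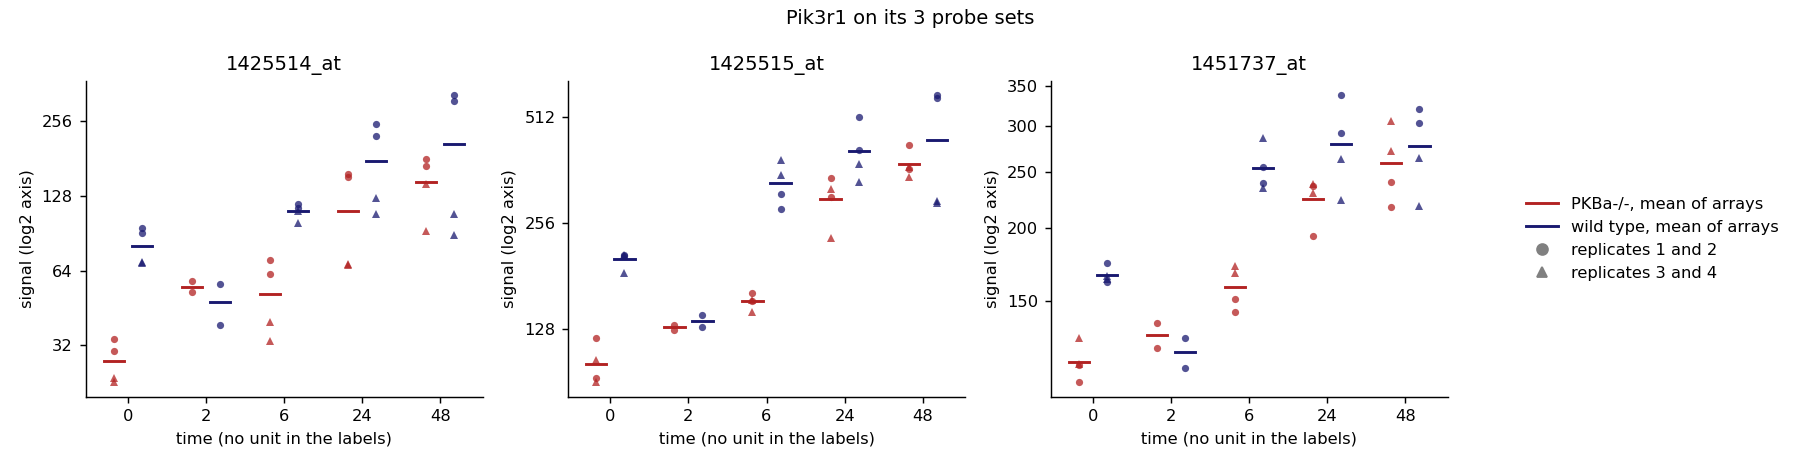
Signal of Pik3r1 on its 3 probe sets, on a log2 axis, against time (no unit in the labels); points are arrays, bars are means, with PKBa-/- left of wild type. On each probe set the PKBa-/- arrays lie below the wild type arrays at times 0 and 6 and overlap with them at times 24 and 48, and the wild type arrays of replicates 1 and 2 (circles) and 3 and 4 (triangles) part at time 48.

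Pik3r2, which encodes the regulatory subunit p85 beta, was higher in PKBa-/-. Its signals ran over 739 to 1274 with a median of 1036 in PKBa-/- and over 512 to 962 with a median of 747 in wild type. At each of the 5 times every PKBa-/- array lay above every wild type array of that time. The gap was seen at time 0, with 1076, 910.2, 1041 and 1087 in PKBa-/- and 763, 841, 731 and 811 in wild type. At time 6, where both genotypes were low, it was 831, 814, 739 and 766 in PKBa-/- against 555, 512, 597 and 643 in wild type. At time 48, where PKBa-/- was highest, the arrays gave 1248, 1274, 1186 and 1047, against 962, 943, 649.9 and 713 in wild type. The averaged difference was 0.44 ± 0.07 (1.35-fold higher, limma adjusted p = 0.00035). At single times it lay between 0.32 ± 0.15 at time 24 (limma adjusted p = 0.16) and 0.54 ± 0.15 at time 48 (1.45-fold higher, limma adjusted p = 0.020), and time 48 was the one time at which it passed. With the replicate set as a block it also passed at time 6 (0.43 ± 0.15; limma adjusted p = 0.067 without the block and 0.031 with it).

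Pdpk1, the gene of the kinase that phosphorylates Akt in its activation loop, was higher in PKBa-/- on average over the times. Its signals ran over 313 to 474 with a median of 387 in PKBa-/- and over 209 to 322 with a median of 265 in wild type. As with Pik3r2, every PKBa-/- array exceeded every wild type array of the same time. How common this was among all genes was not counted for either gene. At time 0 PKBa-/- gave 431, 429, 366 and 337 and wild type 296, 303, 254 and 233. At time 24 PKBa-/- gave 448, 420.1, 336 and 339 and wild type 278, 283, 209 and 222. Replicates 1 and 2 were brighter than 3 and 4 in both genotypes, and the log2 difference was 0.50 within replicates 1 and 2 and 0.49 within replicates 3 and 4. The averaged difference was 0.51 ± 0.10 (1.42-fold higher, limma adjusted p = 0.001). At no single time did it pass, the values lying between 0.34 ± 0.20 at time 6 (limma adjusted p = 0.30) and 0.61 ± 0.28 at time 2 (limma adjusted p = 0.28). This rests on the fit without a block: with the replicate set as a block it passed at all 5 times, with limma adjusted p between 0.00027 at time 24 and 0.011 at time 6. A dimmer Pdpk1 probe set was also higher, at 279 ± 47.7 in PKBa-/- and 215 ± 26.2 in wild type (SD, n = 18 arrays each; log2 difference 0.36 ± 0.08, limma adjusted p = 0.0024), and there the arrays overlapped at times 6, 24 and 48.

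Inppl1, the gene of the lipid phosphatase SHIP2, was lower in PKBa-/- at time 0. The PKBa-/- arrays then gave 733, 659, 742 and 746, against 1128, 1017, 1019 and 1004 in wild type, with no overlap. That was a log2 difference of -0.51 ± 0.13 (1.43-fold lower, limma adjusted p = 0.016). At times 2 and 6 the genotypes met: time 6 gave 729.9, 639.6, 626 and 560.4 in PKBa-/- and 676, 567, 608 and 757 in wild type (log2 difference -0.03 ± 0.13, limma adjusted p = 0.93). At time 48 PKBa-/- gave 799, 754, 698 and 707 and wild type 1032, 969, 736 and 849, with overlap and with wild type replicates 1 and 2 on top (log2 difference -0.26 ± 0.13, limma adjusted p = 0.16). The averaged difference was -0.20 ± 0.06 (1.15-fold lower, limma adjusted p = 0.017).

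Time by time, without a block, 9 of the 35 differences between the genotypes passed, and 17 did with the replicate set as a block. Akt1, which PKBa-/- cells lack by design, passed at each of the 5 times and is part of every count. With it counted, at time 0 Akt1, Pik3r1 and Inppl1 were lower (3 of 7, where 14.8% of all genes passed and 8.34% were lower). Akt1 alone passed at time 2 (1 of 7; 5.78% of all genes passed and 2.81% were lower), where 1 pair of arrays a genotype was assumed to vary like the other groups, and again at time 24 (1 of 7; 20.4% passed and 10.7% were lower). At time 6 Akt1 and Pik3r1 were lower (2 of 7; 16.5% passed and 8.02% were lower). At time 48 Akt1 was lower and Pik3r2 higher (2 of 7; 23.2% passed, 12.4% higher and 10.8% lower). With 7 genes, these shares were not tested against the background.

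Within a genotype, the later times were set against time 0. For time 2, replicates 1 and 2 alone were set against all 4 replicates of time 0. Pik3r1 showed the largest change of the 7. In PKBa-/- its mean signal was 102 ± 13.8, 129.5 ± 2.51, 154 ± 7.92, 301 ± 48.1 and 377 ± 34.5 at times 0, 2, 6, 24 and 48 (SD, n = 4 arrays, 2 at time 2). In wild type it was 202 ± 11.0, 135 ± 7.54, 333 ± 47.1, 410.0 ± 76.7 and 440.3 ± 169 at the same times. On this probe set, the brightest, every array at times 24 and 48 lay above every array of time 0 in the same genotype. The second probe set showed the same. On the dimmest, wild type arrays at time 48 (88.6 to 324) overlapped with those of time 0 (68.5 to 94.5), while the other 3 comparisons showed no overlap. In PKBa-/- the log2 change was 1.30 ± 0.23 at time 24 (2.47-fold, limma adjusted p = 0.0061) and 1.61 ± 0.23 at time 48 (3.05-fold, limma adjusted p = 0.0012). In wild type it was 0.90 ± 0.23 at time 24 (1.87-fold, limma adjusted p = 0.043) and 0.94 ± 0.23 at time 48 (1.92-fold, limma adjusted p = 0.033). At time 2 the wild type arrays all lay below those of time 0, and the PKBa-/- arrays all above. The changes there, -0.49 ± 0.29 in wild type and 0.27 ± 0.29 in PKBa-/-, did not pass (limma adjusted p = 0.53 and 0.91). At time 6 the changes of 0.47 ± 0.23 in PKBa-/- and 0.63 ± 0.23 in wild type did not pass (limma adjusted p = 0.19 and 0.10). That in wild type passed with the replicate set as a block (0.043).

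The second Pik3r1 probe set rose too, by 0.94 ± 0.15 at time 48 in PKBa-/- (limma adjusted p = 0.003) and by 0.63 ± 0.15 in wild type (limma adjusted p = 0.033; 6.24% of all probe sets passed in PKBa-/- and 5.41% in wild type). On the brightest probe set the change at time 48 was 1.63 in PKBa-/- and 1.37 in wild type within replicates 1 and 2, and 1.59 in PKBa-/- and 0.51 in wild type within replicates 3 and 4. Both wild type calls on that probe set were lost with no filter on dim genes (limma adjusted p = 0.069 at time 24 and 0.055 at time 48) and with the mean of the probe sets (0.076 and 0.060). That at time 24 was also lost without wild type time 24 replicate 1 (0.053) or 3 (0.057) and without PKBa-/- time 24 replicate 3 (0.052). The PKBa-/- calls passed under each of these settings.

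**Figure D4:**
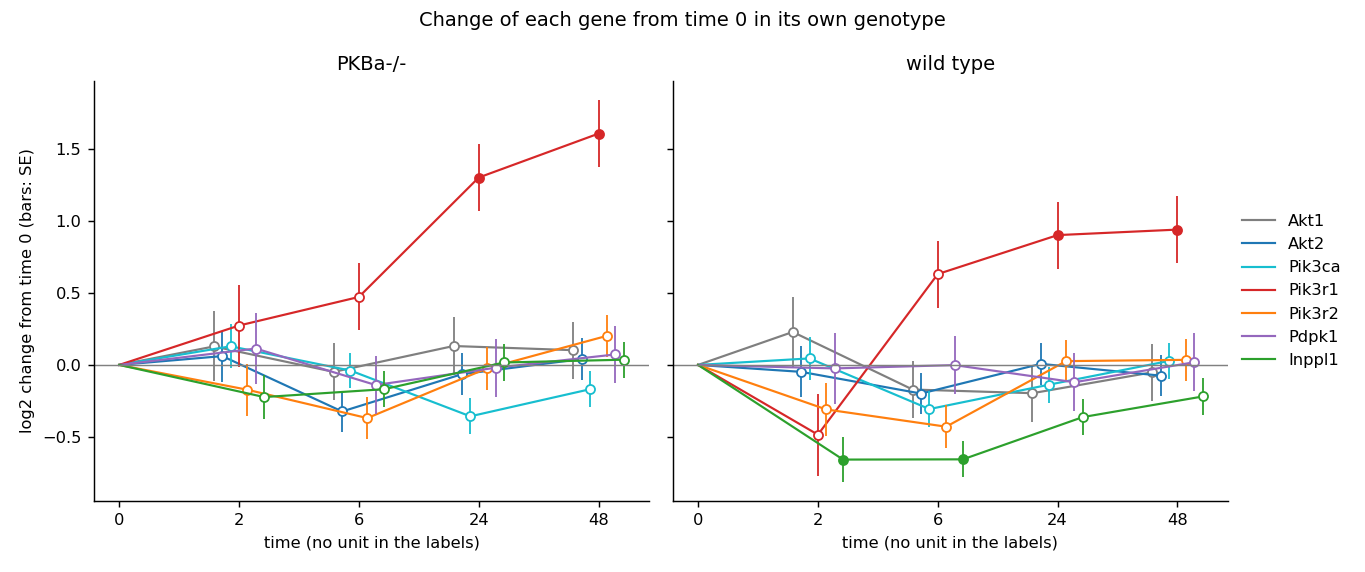
Log2 change of each gene from time 0 of its own genotype, PKBa-/- left and wild type right, with SE bars from the limma fit; filled points have an adjusted p under 0.05. Pik3r1 stands above the other genes at times 24 and 48 in each panel, at 1.61 in PKBa-/- and 0.94 in wild type at time 48, and Inppl1 lies at -0.66 at times 2 and 6 in wild type.

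Inppl1 fell early in wild type. Its mean in PKBa-/- was 720.1 ± 41.1, 612 ± 50.4, 639 ± 69.8, 729 ± 45.8 and 739 ± 46.7 at times 0, 2, 6, 24 and 48. In wild type it was 1042 ± 57.5, 648 ± 25.6, 652 ± 83.0, 805 ± 79.7 and 896 ± 131 (SD, n = 4 arrays, 2 at time 2). Wild type thus began above PKBa-/- and came to its level at times 2 and 6. The log2 change in wild type was -0.66 ± 0.15 at time 2 (1.58-fold lower, limma adjusted p = 0.042) and -0.66 ± 0.13 at time 6 (1.58-fold lower, limma adjusted p = 0.0066). In PKBa-/- it was -0.22 ± 0.15 and -0.17 ± 0.13 (limma adjusted p = 0.73 and 0.42). At time 2 the PKBa-/- arrays (577 to 648) also all lay below those of time 0 (659 to 746). The wild type call at time 2 was lost under an intensity trend (limma adjusted p = 0.050) and when any of 9 arrays was left out (up to 0.061).

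The kinase and PI3K subunit genes other than Pik3r1 had no change over time that passed on their brightest probe sets without a block. Pik3r2 was lowest at time 6 in both genotypes, where it differed from time 0 by -0.37 ± 0.15 in PKBa-/- and by -0.43 ± 0.15 in wild type (limma adjusted p = 0.11 and 0.082), with no overlap between the arrays of the 2 times. The wild type value passed with the replicate set as a block (limma adjusted p = 0.037). Akt2 was also lowest at time 6, by -0.32 ± 0.15 in PKBa-/- and -0.20 ± 0.15 in wild type (limma adjusted p = 0.15 and 0.42). Pik3ca differed from time 0 by -0.36 ± 0.12 at time 24 in PKBa-/- and by -0.31 ± 0.12 at time 6 in wild type (limma adjusted p = 0.12 and 0.14), and both passed with the replicate set as a block (0.023 and 0.032). For Pdpk1 no change exceeded 0.14 in size, and its smallest adjusted p was 0.73.

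For Akt1 in wild type the probe sets disagreed over time. On the brightest one the mean was 1173 ± 214, 1363 ± 1.03, 1026 ± 44.6, 1009.7 ± 96.0 and 1137 ± 248 at times 0, 2, 6, 24 and 48 (SD, n = 4 arrays, 2 at time 2), and the change at time 48 was -0.05 ± 0.20 (limma adjusted p = 0.92). On the other it was 949 ± 133, 887 ± 73.5, 682 ± 78.4, 676 ± 57.9 and 609 ± 39.8. There the arrays of times 6, 24 and 48 all lay below those of time 0, with changes of -0.46 ± 0.13 at time 6 (limma adjusted p = 0.042), -0.46 ± 0.13 at time 24 (limma adjusted p = 0.060) and -0.61 ± 0.13 at time 48 (limma adjusted p = 0.016; 9.67%, 4.37% and 5.41% of all probe sets passed at these times). Which of the probe sets follows the whole transcript pool cannot be told from these values.

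In counts without a block, 0 of the 7 genes passed at times 2 and 6 in PKBa-/- (limma; 0 and 2 at an unadjusted p under 0.05; 3.39% and 18.4% of all genes passed). In wild type Inppl1 alone passed at each of these times, lower (2.73% of all genes passed at time 2, 1.43% lower, and 11.9% at time 6, 7.69% lower). Pik3r1 alone passed at times 24 and 48, higher in both genotypes. In PKBa-/- 6.15% of all genes passed at time 24, 2.8% higher, and 7.45% at time 48, 3.07% higher. In wild type 5.66% passed at time 24, 2.21% higher, and 6.01% at time 48, 2.12% higher.

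Whether the change from time 0 differed between the genotypes was tested as the change in PKBa-/- minus that in wild type. None of the 28 such differences passed (limma; 1 at an unadjusted p under 0.05, and 2 with adjusted p under 0.05 when arrays rather than pairs were taken as replicates). Of all genes, 0.242%, 0.551%, 0.726% and 1.14% passed at times 2, 6, 24 and 48. For Pik3r1 the difference was 0.67 ± 0.33 at time 48 (95% interval -0.05 to 1.38, limma adjusted p = 0.50). For Inppl1 it was 0.49 ± 0.18 at time 6 (95% interval 0.10 to 0.87, limma adjusted p = 0.37), the value with an unadjusted p under 0.05. In the F test over the 4 later times the adjusted p ran from 0.62 for Pik3ca to 1 for 4 genes, and 1.75% of all genes passed. So neither the rise of Pik3r1 nor the early fall of Inppl1 was shown to differ between the genotypes.

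The order of the 10 group means shows how each gene was laid out. For Akt1 and Pdpk1 the groups of 1 genotype came first and those of the other after them, with wild type on top for Akt1 and PKBa-/- on top for Pdpk1. Neighbours in the Pdpk1 order overlapped throughout. For Akt2, Pik3ca and Inppl1 all neighbours in the order overlapped too. For Pik3r1 the 5 highest means, from wild type at time 48 (440.3) to PKBa-/- at time 24 (301), overlapped neighbour by neighbour, and a gap without overlap set them apart from wild type at time 0 (202), PKBa-/- at time 6 (154), the time 2 groups (129.5 in PKBa-/-, 135 in wild type) and PKBa-/- at time 0 (102). For Pik3r2 the 4 highest means were those of PKBa-/- at times 48, 0, 24 and 2, and PKBa-/- at time 6 (788) stood among the wild type groups.

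The genes whose 10 group means followed each gene most closely were read as a description, with Pearson's r over those means. For Akt1 they were Upk3b (r = 0.997), Serping1 (0.996) and Pdpn (0.995), and for Pdpk1 Ctsk (0.981), Tnmd (0.978) and Plxna3 (0.975). For these 2 genes the means fall into a cluster per genotype, so r restates that split. It does not give the size of the log2 genotype difference. That was -5.61 for Upk3b beside -3.45 for Akt1, and 5.24 for Tnmd beside 0.51 for Pdpk1. Pik3r1 was followed by Zhx1 (0.951), Rassf2 (0.947) and Tars2 (0.940), and Rassf2 changed by 2.61 at time 48 in PKBa-/- and by 1.12 in wild type on the log2 scale. Pik3r2 was followed by Nisch (0.969), Yap1 (0.966) and Ulk2 (0.961), and Akt2 by Babam2 (0.918), Arf5 (0.908) and Fam76a (0.907). Pitpnm2 (0.943), Rnf11 (0.930) and Luzp1 (0.911) came nearest to Pik3ca, and Chic2 (0.939), Ammecr1l (0.917) and Zfp532 (0.911) to Inppl1. The best of 7436 genes is high by selection, and the points share arrays.

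Of 106 other genes listed for the pathway, 80 were on the array and 61 were bright enough to test. Between the genotypes, averaged over the times, 28 passed, 17 higher and 11 lower in PKBa-/-, with a median log2 difference of 0.01, beside 0.03 over all genes. Of all genes, 47.4% passed, 26.5% higher and 20.9% lower. The genes nearest to the 7 described here included class II PI3K Pik3c2a (0.42 ± 0.11, limma adjusted p = 0.0084) and the inositol phosphatases Inpp5e (0.36 ± 0.05, limma adjusted p = 7.1e-05) and Inpp5k (-0.41 ± 0.06, limma adjusted p = 9.7e-05), which were named after their values were seen. By role, 1 of 2 tested class II and III PI3K genes, 2 of 5 inositol lipid phosphatases and 0 of 1 upstream kinase genes passed. None of the other class I PI3K genes on the array, 3 of 8 listed, was bright enough to test.

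The highest differences were those of Phlpp1, a phosphatase that dephosphorylates Akt (0.89 ± 0.15, limma adjusted p = 0.00032), Pdcd4, an inhibitor of translation (0.59 ± 0.11, limma adjusted p = 0.00093), and Tsc2, which restrains mTOR complex 1 and is an Akt substrate (0.55 ± 0.07, limma adjusted p = 4.5e-05). Phlpp1 signal averaged 392 ± 13.5 in PKBa-/- and 188 ± 50.4 in wild type at time 0 (SD, n = 4 arrays each). The lowest were those of Pfkfb3, an enzyme that drives glycolysis (-0.94 ± 0.07, limma adjusted p = 3.3e-07), the actin-bundling Palld (-0.63 ± 0.10, limma adjusted p = 2e-04) and the chaperone Hsp90aa1 (-0.61 ± 0.12, limma adjusted p = 0.0014). Pfkfb3 at time 48 averaged 62.8 ± 5.66 in PKBa-/- and 199 ± 30.2 in wild type, with no overlap, while at time 2 it averaged 343 ± 81.5 in PKBa-/- and 376 ± 47.4 in wild type (SD, n = 2 arrays each). Of mTOR complex 1 and its control, 5 of 11 tested genes were higher and 1 lower, and of the Akt substrates 4 of 16 were higher and 5 lower, beside the same shares of 26.5% and 20.9% over all genes.

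**Figure D5:**
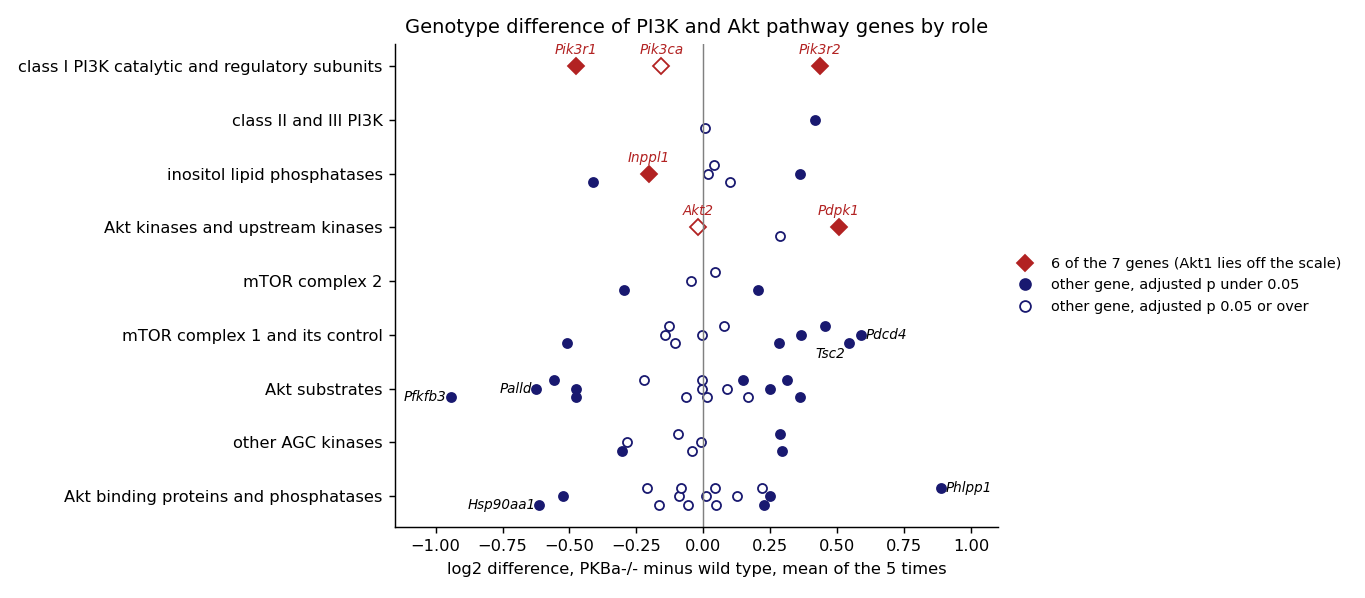
Mean log2 difference over the times, PKBa-/- minus wild type, for the pathway genes tested, in rows by role; diamonds are 6 of the 7 genes (Akt1, at -3.45, lies off the scale), circles are the other 61, and filled symbols have an adjusted p under 0.05. Differences lie on both sides of 0 in most rows, from -0.94 for Pfkfb3 to 0.89 for Phlpp1.

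From time 0 to time 6, 11 of the 61 genes passed in PKBa-/-, 2 of them higher, and 10 passed in wild type, 3 of them higher, where 18.4% of all genes passed in PKBa-/- and 11.9% in wild type. At time 48, 3 passed in PKBa-/-, all lower, and 4 in wild type, 2 of them higher, where 7.45% of all genes passed in PKBa-/- and 6.01% in wild type. Among all genes that passed at time 6, 46.8% were higher in PKBa-/- and 35.4% in wild type. At time 48 these shares were 41.2% in PKBa-/- and 35.3% in wild type. Trib3, a pseudokinase that binds Akt, fell in both genotypes: at time 48 it averaged 246 ± 33.6 in PKBa-/- and 154 ± 16.6 in wild type, against 627 ± 75.1 in PKBa-/- and 637 ± 130.2 in wild type at time 0 (SD, n = 4 arrays each). Its change was -1.24 ± 0.18 in PKBa-/- (limma adjusted p = 0.0012) and -1.83 ± 0.18 in wild type (limma adjusted p = 0.00016). Eif4ebp1, the translation repressor controlled by mTOR complex 1, fell by 0.73 on the log2 scale in PKBa-/- and by 1.04 in wild type (limma adjusted p = 0.020 and 0.0039). The other gene that was lower at time 48 in PKBa-/- was the kinase gene Prkcd (-0.68 ± 0.15, limma adjusted p = 0.018), named after its value was seen. In wild type, Sgk1, a kinase related to Akt, rose by 1.55 ± 0.32 (limma adjusted p = 0.013) and Ddit4, an inhibitor of mTOR complex 1, by 1.15 ± 0.24 (limma adjusted p = 0.014). Both genes were also higher at time 48 in PKBa-/-, with no overlap of arrays, but did not pass there. In PKBa-/- Sgk1 averaged 291 ± 24.3 at time 0 and 486 ± 82.9 at time 48, and Ddit4 328 ± 73.8 and 602 ± 41.9 (SD, n = 4 arrays each). None of the 61 genes had a change at time 48 that was shown to differ between the genotypes.

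At time 6 in PKBa-/- the highest changes among these genes were those of Prkce (0.62 ± 0.16, limma adjusted p = 0.020) and Ppp2r1b (0.51 ± 0.16, limma adjusted p = 0.043), a kinase and a phosphatase scaffold gene. The lowest were those of Palld (-1.64 ± 0.20, limma adjusted p = 0.00028) and Trib3 (-1.09 ± 0.18, limma adjusted p = 0.0018). In wild type, Ppp2r1b also rose, averaging 342 at time 0 and 606 at time 6, and Palld also fell, from 2257 to 1309. Prkce averaged 173 and 171 at these times in wild type. In wild type at time 6 the extremes were Sgk1 (1.27 ± 0.32, limma adjusted p = 0.024) and Ddit4 (0.84 ± 0.24, limma adjusted p = 0.042), and Trib3 (-1.36 ± 0.18, limma adjusted p = 0.00067) and Ilk, the integrin-linked kinase gene (-0.95 ± 0.24, limma adjusted p = 0.024). Ilk also passed as lower in PKBa-/- (log2 change -0.99), averaging 1725 at time 0 and 848 at time 6. Ddit4 averaged 328 and 481 at these times in PKBa-/-, and Sgk1 291 and 252. None of the 61 genes had a change at time 6 that was shown to differ between the genotypes. The comparisons with time 0 within a genotype share the same time 0 arrays.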

How the data were processed

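RNA of PKBa-/- and wild type fibroblasts, 18 samples each in 10 groups of genotype and time, was labelled as biotinylated cRNA and hybridised to Affymetrix arrays, per the labels' protocols. The values are intensities, the probe set signals of the table the authors deposited; the sources used here do not say how they were summarised and normalized. Of 22690 probe sets, 20380 carry 1 gene symbol in the platform annotation, 691 several, 1555 none, and 64 are controls.

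Signals were taken as log2(signal + 32), and each gene was read on its brightest probe set. The 40% of genes with the lowest mean were not tested, which left 7436 of 12393. Replicates 1 and 2, and 3 and 4, of a group were averaged to 18 pair averages, since arrays of a pair correlated at 0.982 to 0.997 and pairs of a group at 0.942 to 0.989. Group means, 10 in all, were fitted with limma 3.58.1 (R 4.3.3) and eBayes (8 residual and 4.24 prior degrees of freedom), and two-sided p-values were adjusted by Benjamini-Hochberg over all genes tested in a comparison, with a threshold of 0.05. A second fit over 12228 probe sets gave the adjusted p of further probe sets. Folds are on the log2(signal + 32) scale. The script was tested on simulated data.

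Same-numbered arrays correlated in their deviations from group means at -0.116 to 0.324 between the genotypes and at -0.0126 to 0.705 between times, and 20 of 46 correlated best with their own number. Every same-number r was over 0.1 in 7 of the 10 comparisons with 4 numbers. The fit has no block, and the adjusted p with the replicate set (1 and 2, or 3 and 4) as a block stands beside each result of the 7 genes, on the brightest probe set, whose call it changes. Of the other pathway genes, the 3 highest and 3 lowest genotype differences that passed were named, with the 2 highest and 2 lowest changes that passed at times 6 and 48 in each genotype, and the 3 genes with the highest r to each member. The genes, the pathway list, the markers and the pair averages were chosen with earlier results of these data known.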

Additional observations from a re-analysis of the deposited data

Results flagged for a closer look

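Of 104 groups of 4 arrays checked, 5 held an array that stood apart from the other 3 by Dixon's criterion, which chance does in about 1 group of 20. Akt2 in PKBa-/- at time 6 gave 567 in replicate 1, against 469.5 to 483 in the others. Pik3ca in wild type at time 48 gave 672 in replicate 1, against 552 to 559.7 in the others. Pik3r1 in wild type at time 0 gave 185 in replicate 3, against 206 to 208 in the others. Inppl1 at time 0 gave 659 in PKBa-/- replicate 2, against 733 to 746 in the others, and 1127.5 in wild type replicate 1, against 1004 to 1019 in the others.

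For 2 of 28 changes from time 0, every PKBa-/- array lay on one side of its own genotype's time 0 mean and every wild type array on the other side of its own, both at time 2. The change in PKBa-/- minus that in wild type was 0.76 for Pik3r1 and 0.14 for Pdpk1 on the log2 scale (limma adjusted p = 1 for each).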

How the results depend on the processing

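Of 126 log2 differences (7 genes in 18 comparisons), none changed from called in one direction to called in the other under any setting run. Offset 16 and a filter at 20% changed no call, and the other settings on the pair averages changed between 1 (intensity trend) and 13 (replicate block). Averaged over the times, 5 of 7 genes passed between the genotypes, and 5 to 6 did when any 1 array was left out. Over single times, 9 of 35 differences passed, 8 to 11 with 1 array left out, 14 with pairs as a random effect, 15 after quantile normalization and 22 with arrays as replicates. In wild type over time 4 of 28 passed, 2 to 4 with 1 array left out (2 without wild type time 24 replicate 3), 2 with no filter, 2 with the mean of all probe sets and 8 with arrays as replicates. In PKBa-/- over time 2 of 28 passed, 2 with any 1 array left out and 6 with arrays as replicates. Of 28 interactions 0 passed, 0 with any 1 array left out and 2 with arrays as replicates: Inppl1 at time 6 (limma adjusted p = 0.015) and Pik3r1 at time 48 (0.039). Pik3ca, at 0.051 over the times, ran between 0.00016 with replicates 1 and 2 alone and 0.17 with the mean of all probe sets. It passed with arrays as replicates (0.0024), the replicate block on pair averages (0.010) or on arrays (0.00059), replicates 3 and 4 alone (0.029), quantile normalization (0.022), no filter (0.045), offset 64 (0.047) and in 11 of 36 fits without 1 array. With arrays as replicates, between 1748 and 3487 of all genes passed between the genotypes at single times, against 430 to 1726 with pair averages and 847 to 2552 with the replicate block on them.

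With the replicate set as a replicate block on pair averages, 6 of 7 averaged differences, 17 of 35 genotype differences, 7 of 28 wild type and 3 of 28 PKBa-/- changes and 0 interactions passed; the report gives the 13 calls gained, and none was lost. With arrays as replicates and the number as a replicate block, the counts were 22, 13, 7 in PKBa-/- and 3 interactions. Replicates 1 and 2 alone gave 23 genotype differences, 14 wild type changes, 7 PKBa-/- changes and 4 interactions. Replicates 3 and 4 alone gave 19 of 28, 8 of 21, 8 of 21 and 1 of 21. Arrays of a pair were counted as separate in these last 3, and the cause of the differences in counts was not tested.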
